A study of Mus musculus with 10 samples.

Results

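The subject is 9 enzymes that build triglyceride in the liver, the genes Gpam, Agpat2, Agpat3, Lpin1, Lpin2, Lpin3, Dgat1, Dgat2 and Mogat1. They were chosen by gene symbol from the platform table, with the brightest probe set standing for each gene. All 9 were found among 22180 genes that have a probe set with 1 symbol, and all 9 passed the filter on dim probe sets that left 13942 genes for testing. RNA came from livers of BALB/cByJ females aged 3 months and was hybridised to 10 Affymetrix Mouse Gene 2.1 ST arrays, which carry many short probes along the exons of a transcript. Each genotype, wild type and Pml knockout, gave 2 arrays from mice fed ad libitum and 3 from mice whose food was withheld for 6 h. Pml encodes the scaffold of PML nuclear bodies. No source used here gives the deleted sequence, how the line was made or the hour of collection. The labels do not say that arrays are separate animals, so a p value here refers to variation among arrays, which may be technical.

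Triglyceride is built on glycerol 3-phosphate. Glycerol-3-phosphate acyltransferase (Gpam) adds the first fatty acid, lysophosphatidic acid acyltransferases (Agpat2, Agpat3) add the second, and lipins (Lpin1, Lpin2, Lpin3) remove the phosphate to give diacylglycerol. Diacylglycerol acyltransferases (Dgat1, Dgat2) add the last fatty acid, and monoacylglycerol acyltransferase (Mogat1) makes diacylglycerol by a side route. Lipin 1 is also known as a partner of the transcription coactivator PGC-1alpha in fasted liver, and lipins are known to rise in liver during fasting. Fed liver makes fatty acids from glucose under insulin, whereas fasted liver takes up fatty acids from adipose tissue and esterifies part of them again.

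Before the results, 4 facts about the arrays bear on them. Pml, which checks the labels, had a log2 intensity between 7.50 and 8.37 on wild type arrays and between 6.05 and 6.91 on knockout arrays; whether its probes lie within the deletion is not known here. The 7 hepatocyte markers found were above the array median on every array (Alb between 12.98 and 13.09). Of these, Ass1 was 8.917 and 8.998 in fed wild type and between 7.085 and 7.878 in fasted wild type. In knockout Ass1 was 9.002 and 8.602 fed and between 6.539 and 7.899 fasted. By the fit described below, 1 of the 7 was called for fasting in wild type. Of 8 adipocyte markers found, Lep, Retn and Cidea were below the array median on all arrays. Adipoq lay between 5.27 and 5.87, close to array medians, and Plin1 between 4.90 and 5.61, above the median on 2 arrays. Fabp4 (7.27 to 8.66), Lipe (7.32 to 8.36) and Adig (5.49 to 5.91) were above the median on all arrays. Of clock genes, a score (mean log2 of Arntl, Npas2 and Clock minus that of Dbp, Nr1d1, Nr1d2, Per3, Tef and Ciart) split the fasted knockout arrays. It was -3.29, -2.90 and 2.64 in replicates 1, 2 and 3, against 2.23 to 2.96 in fasted wild type, -1.35 and -0.72 in fed wild type and -2.39 and -2.23 in fed knockout. Clock state and food removal therefore cannot be told apart in wild type, and values of the 9 genes that rest on fasted knockout were recomputed without its replicates 1 and 2.

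A limma fit to all 10 arrays gave each log2 difference and its standard error (SE), and p values are adjusted by Benjamini-Hochberg over the 13942 genes. Calls are at an adjusted p below 0.05. Intensities of different probe sets are not comparable, so levels are compared only within a gene. In bulk tissue, fewer cells of a type and less RNA per cell cannot be told apart.

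Lpin1 and Lpin2 showed the largest fasting differences of the 9 genes in wild type. After the fast Lpin1 was 4.01-fold and Lpin2 3.04-fold higher, and Mogat1, Dgat1 and Agpat3 were higher by smaller amounts. With the clock score as a covariate Lpin1 and Lpin2 were still called (adjusted p = 0.0237 and 0.0119), and Agpat3 (0.264), Dgat1 (0.202) and Mogat1 (0.166) were not. That fit called 8.38% of all genes for fasting in wild type, against 21.4% in the main fit. Its log2 differences were 2.00 for Lpin1, 1.62 for Lpin2, 0.26 for Agpat3, 0.32 for Dgat1 and 0.77 for Mogat1. Main differences were 2.00, 1.60, 0.36, 0.39 and 0.78. Within a group the score varied widely only in fasted knockout. The covariate therefore cannot separate clock state from fasting in wild type. In knockout liver none of the 9 was called after the fast, and Lpin1 and Lpin2 stood above fed wild type already in the fed state, by 3.34-fold and 2.06-fold, which limma did not call. The fasting differences of Lpin1 and Lpin2 differed between genotypes by the test of the interaction. Gpam, Agpat2, Lpin3 and Dgat2 were not called in any of the 5 comparisons.

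**Figure D1:**
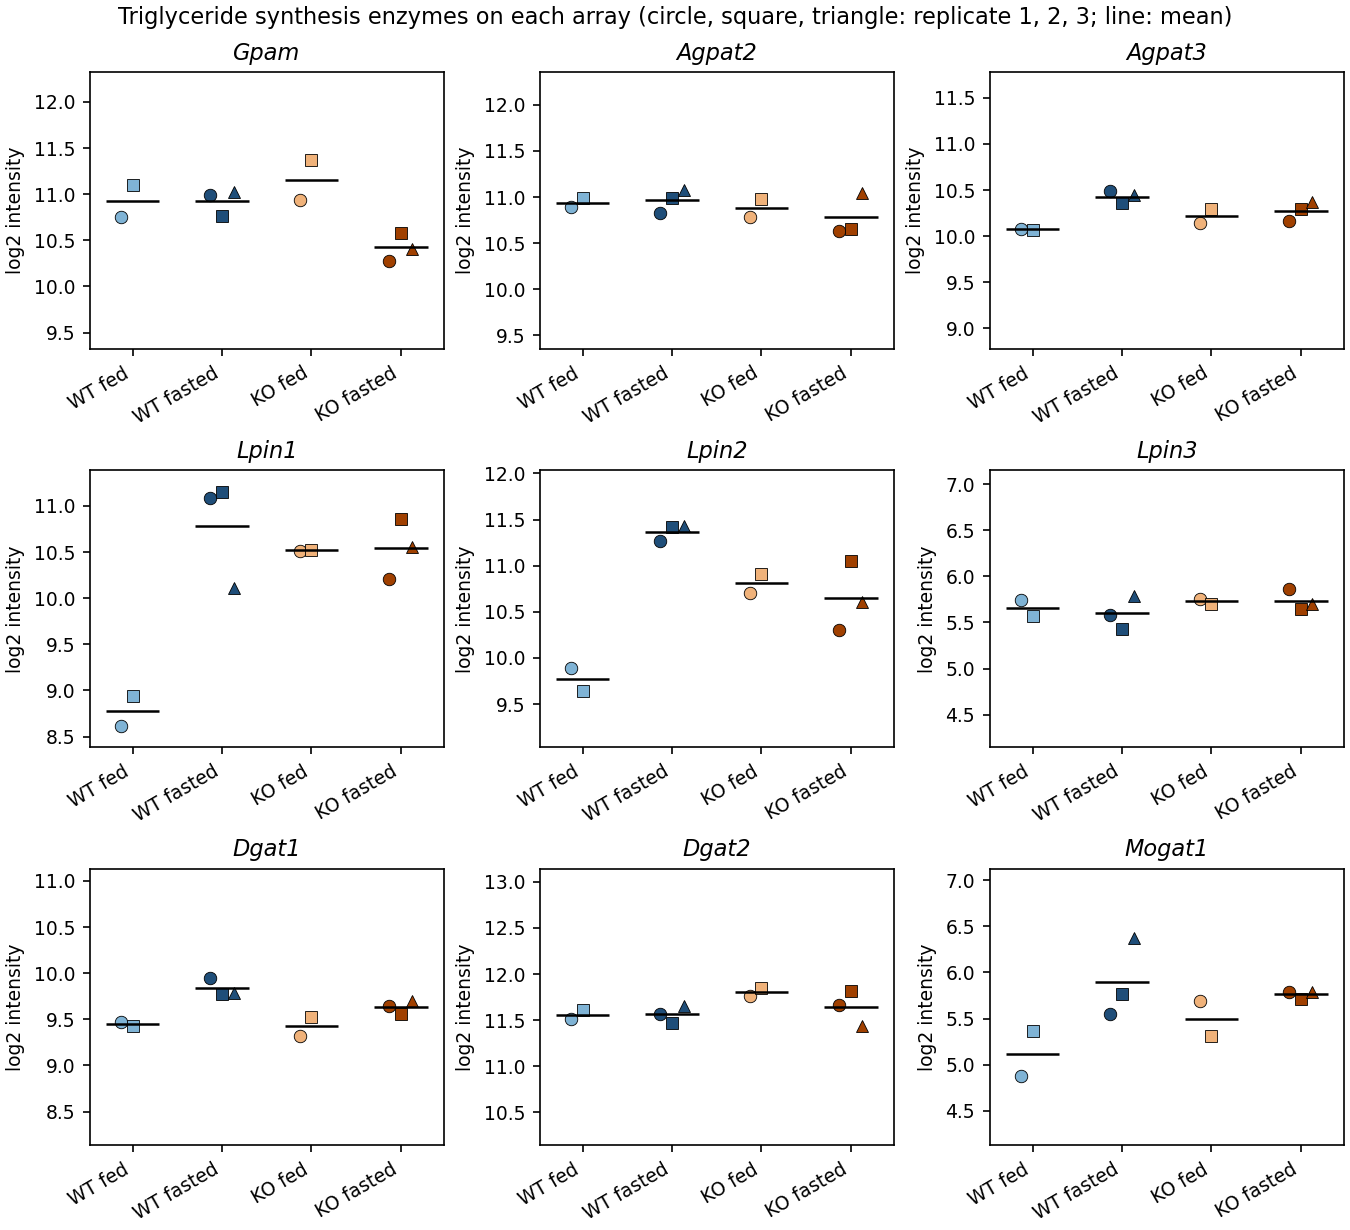
Log2 intensity (vertical axis, each panel spanning 3 log2 units) of each enzyme gene on each of the 10 arrays, by group, with the group mean as a line. Fed wild type lies lowest for Lpin1 (8.61 and 8.94) and Lpin2 (9.64 and 9.90), while fasted knockout lies lowest for Gpam (10.28 to 10.58).

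Gpam, the mitochondrial enzyme of this step and a known target of SREBP-1c, had a log2 intensity of 10.75 and 11.10 in fed wild type, between 10.77 and 11.03 on the 3 fasted wild type arrays, 10.93 and 11.37 in fed knockout, and 10.28, 10.58 and 10.41 in fasted knockout. All 3 fasted knockout arrays lay below the other 7 arrays. The fasting difference was 0.00046 (SE 0.17, adjusted p = 0.999, 95% interval -0.38 to 0.38) in wild type and -0.73 (SE 0.17, adjusted p = 0.0649) in knockout, which was not called. Knockout minus wild type was 0.22 (SE 0.19, adjusted p = 0.828) fed and -0.51 (SE 0.15, adjusted p = 0.0603) fasted. These knockout values of Gpam passed the threshold in 3 of 22 alternatives, with adjusted p between 0.0272 and 0.383 for fasting in knockout and between 0.0298 and 0.282 for the fasted genotypes. Without fasted knockout replicates 1 and 2 they were -0.74 (adjusted p = 0.140) and -0.52 (adjusted p = 0.269). The interaction was -0.73 (SE 0.24, adjusted p = 0.139).

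Agpat3, an acyltransferase that also feeds phospholipid remodelling, was at 10.08 and 10.07 in fed wild type and at 10.49, 10.36 and 10.44 in fasted wild type. In knockout it was 10.15 and 10.29 fed, and 10.16, 10.29 and 10.37 fasted. Wild type groups did not overlap, whereas knockout groups did. Agpat3 rose 1.28-fold with fasting in wild type (log2 0.36, SE 0.11, adjusted p = 0.0396), and in knockout the difference was 0.05 (SE 0.11, adjusted p = 0.828), or 0.15 (adjusted p = 0.592) without replicates 1 and 2. The interaction of Agpat3 was -0.30 (SE 0.15, adjusted p = 0.292) and was not called. The call in wild type held in 9 of 22 alternative settings. It was lost without either fed wild type array (adjusted p = 0.147 and 0.135), either fed knockout array (0.0517 for both), any fasted wild type array (0.0964, 0.0620 and 0.0924) or fasted knockout replicate 2 (0.0509).

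Agpat2, the isoform whose loss causes lipodystrophy, lay between 10.63 and 11.07 on all arrays, and its groups overlapped in every comparison. Its fasting difference was 0.02 (95% interval -0.31 to 0.35) in wild type and -0.10 (-0.43 to 0.23) in knockout. In fasted knockout it was 10.63 and 10.65 in replicates 1 and 2 and 11.05 in replicate 3. Replicate 3, the array with the high clock score, thus lay 0.39 above the others, which differed by 0.02.

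The lipin step showed the widest range. Lpin1 was at 8.61 and 8.94 in fed wild type and at 11.09, 11.16 and 10.11 in fasted wild type. In knockout it was at 10.52 and 10.52 fed and at 10.20, 10.86 and 10.56 fasted. Both fed wild type arrays lay below the other 8 arrays, and the knockout groups lay within the range of fasted wild type. Over all arrays Lpin1 spanned 5.82-fold. It was higher after the fast in wild type (log2 2.00, SE 0.30, adjusted p = 0.00216), while in knockout the difference was 0.02 (SE 0.30, adjusted p = 0.978, 95% interval -0.65 to 0.70). Fed knockout minus fed wild type was 1.74 (SE 0.33, 95% interval 1.00 to 2.48, adjusted p = 0.157), and fasted knockout minus fasted wild type was -0.24 (SE 0.27, adjusted p = 0.598). The fed difference ranked 16 by size and 36 by p among the 13942 genes and was not called in any of 22 alternatives (adjusted p between 0.0582 and 0.455).

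Lpin2 followed a like order, with fed wild type lowest and fasted wild type highest. It was at 9.90 and 9.64 in fed wild type, at 11.26, 11.42 and 11.43 in fasted wild type, at 10.71 and 10.91 in fed knockout and at 10.30, 11.05 and 10.61 in fasted knockout. The knockout groups overlapped each other and lay between the wild type groups, which they did not overlap. Lpin2 was higher after the fast in wild type (log2 1.60, SE 0.20, adjusted p = 0.000945), and in knockout the difference was -0.15 (SE 0.20, adjusted p = 0.712, 95% interval -0.59 to 0.28). Fed knockout minus fed wild type was 1.04 (SE 0.21, 95% interval 0.56 to 1.52, adjusted p = 0.193). Fasted, Lpin2 was 1.64-fold lower in knockout (log2 -0.72, SE 0.18, adjusted p = 0.0324).

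The second, dimmer probe set of Lpin2, chosen for this check after its values were seen, gave the same calls. In wild type Lpin2 had a mean of 8.24 ± 0.48 (SD, n = 2) fed and 9.97 ± 0.09 (SD, n = 3) fasted on this probe set. In knockout the mean was 9.33 ± 0.20 (SD, n = 2) fed and 9.09 ± 0.32 (SD, n = 3) fasted. The fasting difference was 1.73 in wild type (adjusted p = 0.00119) and -0.24 in knockout (adjusted p = 0.614). Knockout minus wild type was 1.09 fed (adjusted p = 0.206) and -0.88 fasted (adjusted p = 0.0260). The interaction was -1.97 (adjusted p = 0.0278).

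Lpin3, the remaining lipin, was near the array median on all arrays, between 5.43 and 5.86, and above that median on 9 of 10. Its groups overlapped in all 5 comparisons and its differences lay between -0.06 and 0.14. A level this low leaves little room to see a fall.

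The interaction test compares the fasting difference of knockout with that of wild type. For Lpin1 it was -1.98 (SE 0.43, adjusted p = 0.0488) and for Lpin2 -1.76 (SE 0.28, adjusted p = 0.0278). No fasted-minus-fed difference between 2 knockout arrays lay within the range of those in wild type for either gene. The size was stable: over 21 alternatives it lay between -2.32 and -1.80 for Lpin1 and between -1.96 and -1.58 for Lpin2. Among these, the filters, the moderation and the replicate block could only give the main value again, so they are no check on the size. The calls were not stable. That of Lpin1 held in 4 of 21 and was lost without any 1 array other than fasted wild type replicate 3 (adjusted p between 0.0530 and 0.139). That of Lpin2 held in 12 of 21 and was lost on omitting replicate 2 of fed wild type (adjusted p = 0.0586), fed knockout replicates 1 (0.0769) or 2 (0.0949), or fasted wild type replicates 1 (0.0531), 2 (0.0544) or 3 (0.0580). The fasted genotype difference of Lpin2 held in 13 of 22 and was lost without fasted wild type replicates 1 (adjusted p = 0.0656), 2 (0.0822) or 3 (0.0981) or fasted knockout replicates 1 (0.101) or 3 (0.0635). The rise of Lpin1 and Lpin2 in wild type was called in all 22 alternatives, with adjusted p up to 0.0237 and 0.0119.

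Fasted knockout replicate 3, which stood apart in clock genes, did not stand apart in Lpin1 or Lpin2. It lay between replicates 1 and 2 for Lpin1, Lpin2 (brighter probe set) and Gpam. On the dimmer probe set of Lpin2 replicate 3 was highest, at 9.32 against 8.72 and 9.23 in replicates 1 and 2. Without replicates 1 and 2, the 1 remaining fasted knockout array being assumed to vary like the others, the interaction was -1.96 for Lpin1 (adjusted p = 0.124) and -1.80 for Lpin2 (adjusted p = 0.0650), and 0 genes of 13942 were called in it by limma. With the clock score as a covariate it was -1.98 (adjusted p = 0.0828) and -1.77 (adjusted p = 0.0504). The fasted genotype difference of Lpin2 was -0.76 (adjusted p = 0.0882) without those replicates and -0.74 (adjusted p = 0.196) with the covariate.

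**Figure D2:**
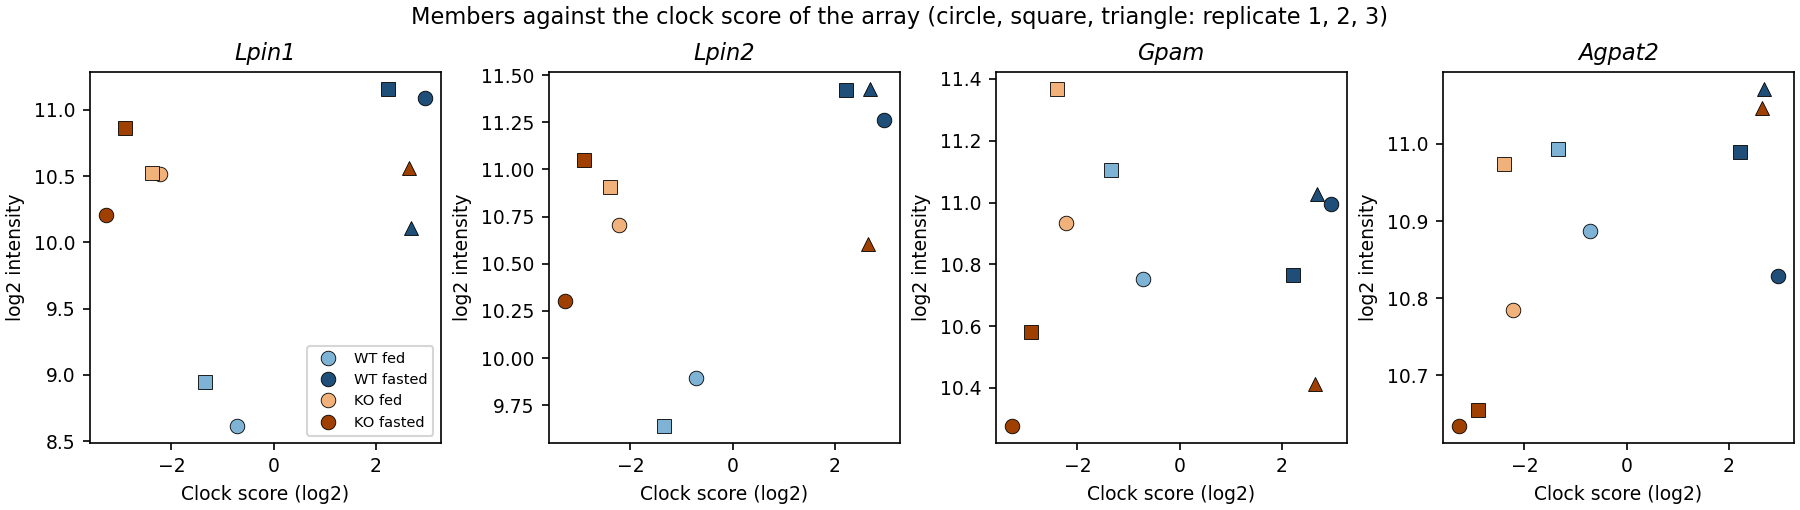
Log2 intensity of Lpin1, Lpin2, Gpam and Agpat2 (vertical axis) against the clock score of each array (horizontal axis, log2). Fasted knockout replicate 3 (triangle at a score of 2.64) lies level with the other fasted knockout arrays for Lpin1, Lpin2 and Gpam, and above them for Agpat2 (11.05).

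Because Lpin1 and Lpin2 differed together, the 250 bases before their listed transcript starts are shown, from RefSeq promoter windows (build GRCm38.p6). Windows were found for 7 of the 9 genes, 11 in all. Lpin2 has windows at several starts, and those with a motif match are printed. Capitals mark matches to 6 motifs searched on both strands, the E-box CACGTG, FoxO TGTTTAC, nuclear receptor core AGGTCA, CRE TGACGTCA, SRE TCACNCCAC and D-box TTATGNAA, none of which overlapped here.
Lpin1, chr12:16610967-16611216, minus strand: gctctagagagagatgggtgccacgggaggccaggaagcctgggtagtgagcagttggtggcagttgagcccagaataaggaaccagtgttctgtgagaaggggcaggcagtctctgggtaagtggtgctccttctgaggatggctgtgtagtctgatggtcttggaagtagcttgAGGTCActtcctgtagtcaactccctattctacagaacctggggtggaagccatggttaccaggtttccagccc
Lpin2, first start, chr17:71183282-71183531, plus strand: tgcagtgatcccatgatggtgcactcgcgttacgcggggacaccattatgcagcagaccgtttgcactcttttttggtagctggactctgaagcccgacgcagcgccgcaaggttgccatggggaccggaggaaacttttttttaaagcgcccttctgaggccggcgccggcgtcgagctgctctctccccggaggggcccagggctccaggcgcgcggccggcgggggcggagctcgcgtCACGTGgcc
Lpin2, inner start, chr17:71204404-71204653, plus strand: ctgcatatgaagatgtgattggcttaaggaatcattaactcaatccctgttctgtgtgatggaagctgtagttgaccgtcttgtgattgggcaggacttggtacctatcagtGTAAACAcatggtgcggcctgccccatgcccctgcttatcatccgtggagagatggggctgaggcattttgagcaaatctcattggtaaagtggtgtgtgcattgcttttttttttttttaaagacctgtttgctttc

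The Lpin1 window, whose start lies 42937 bases inside the annotated gene, held 1 AGGTCA that begins 74 bases before the start. Lpin2 held 1 CACGTG 9 bases before its first start and 1 GTAAACA, the FoxO letters on the other strand, 138 bases before its inner start, which lies 21122 bases inside the gene. Of 32851 windows of this length, 14% held AGGTCA, 6.02% CACGTG and 3.17% the FoxO letters on either strand. The Lpin1 and Lpin2 windows shown held different motifs, and none of the 6 occurred in windows of both genes. Sequence outside the windows was not searched. Of the other members, only Gpam held a match, 1 AGGTCA 196 bases before its inner start. These are matches of letters and no sites of binding were measured.

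Dgat1, which esterifies mainly fatty acids taken up or released from stores, was at 9.47 and 9.42 in fed wild type and at 9.95, 9.77 and 9.79 in fasted wild type. In knockout it was at 9.32 and 9.53 fed and at 9.64, 9.55 and 9.70 fasted. Fasted arrays lay above fed arrays in both genotypes. Dgat1 rose 1.31-fold in wild type (log2 0.39, SE 0.11, adjusted p = 0.0320), and in knockout the difference was 0.21 (SE 0.11, adjusted p = 0.339), with an interaction of -0.18 (SE 0.16, adjusted p = 0.550). Without fasted knockout replicates 1 and 2 the knockout difference of Dgat1 was 0.28 (adjusted p = 0.351). The call in wild type held in 12 of 22 alternatives and was lost without either fed wild type array (adjusted p = 0.116 and 0.130) or any fasted wild type array (0.0875, 0.0553 and 0.0621).

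Dgat2, the isoform tied to newly made fatty acids, was at 11.52 and 11.61 in fed wild type, 11.57, 11.47 and 11.66 in fasted wild type, 11.76 and 11.85 in fed knockout, and 11.67, 11.82 and 11.44 in fasted knockout. The fed groups did not overlap. Fasted knockout replicates 1 and 2 lay above all fasted wild type arrays and replicate 3 below them. Its fasting difference was 0.0022 (95% interval -0.28 to 0.29) in wild type and -0.16 (-0.45 to 0.12) in knockout, and fed knockout minus fed wild type was 0.24 (SE 0.14, adjusted p = 0.708).

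Mogat1, the enzyme of the side route, was dim. It lay below the array median on both fed wild type arrays (4.88 and 5.36) and above it on the 3 fasted wild type arrays (5.55, 5.76 and 6.37). In knockout it was at 5.69 and 5.31 fed, with 1 of 2 above the median, and at 5.79, 5.71 and 5.79 fasted. The wild type groups did not overlap. With the array median as a floor for the fed group (5.49), the fasted wild type mean of Mogat1 (5.90) was 1.32-fold above that floor. The measured log2 difference in wild type was 0.78 (SE 0.24, adjusted p = 0.0441, 95% interval 0.24 to 1.31). In knockout the difference was 0.26 (SE 0.24, adjusted p = 0.588), or 0.29 without replicates 1 and 2. The interaction of Mogat1 was -0.51 (adjusted p = 0.424) and was not called. The call held in 8 of 21 alternatives. It was lost on omitting replicate 1 of fed wild type (adjusted p = 0.286), fed knockout replicate 1 or 2 (0.0510 for both), fasted wild type replicates 2 (0.0687) or 3 (0.0927), any fasted knockout array (0.0588, 0.0619 and 0.0545), or fasted knockout replicates 1 and 2 together (0.0765).

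**Figure D3:**
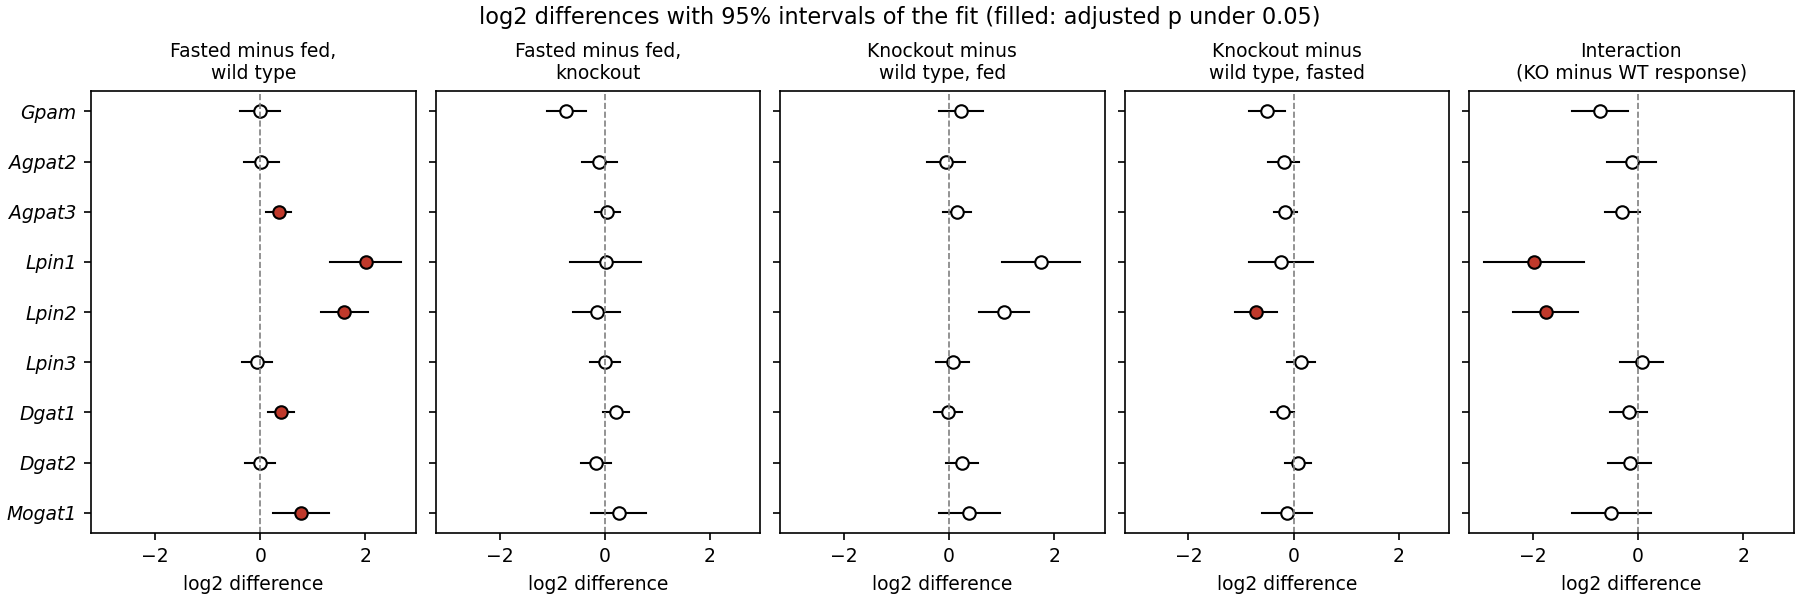
Log2 differences (horizontal axis) of the 9 genes in the 5 comparisons, with 95% intervals of the limma fit and filled points at an adjusted p under 0.05. Filled points are Agpat3, Lpin1, Lpin2, Dgat1 and Mogat1 for fasting in wild type, Lpin2 for the fasted genotypes, and Lpin1 and Lpin2 for the interaction.

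By comparison, the fast in wild type called 5 of the 9 genes, all higher, where 21.4% of all genes were called and 8.23% were called higher. The same 5 had groups that did not overlap, as had 52.7% of all genes. The median difference of the 9 was 0.36, against -0.02 over all genes. In knockout the fast called 0 of 9 by limma (1.68% of all genes, 0.811% higher and 0.868% lower). An unadjusted p under 0.05 was found by limma for 1 of the 9, and for 2680 of all 13942 genes. The groups of 3 did not overlap, Gpam, Dgat1 and Mogat1, where 36.8% of all genes had no overlap, and the median was 0.01 against 0.01 over all genes.

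Between the fed genotypes limma called 0 of 9 (0.0861% of all genes, 0.0574% higher and 0.0287% lower). By limma 2 of the 9 had an unadjusted p under 0.05, as had 1203 of all 13942 genes. Agpat3, Lpin1, Lpin2 and Dgat2 did not overlap (39.9% of all genes), and all 4 were higher in knockout. The median was 0.22 against -0.02. Between the fasted genotypes 1 of 9 was called, Lpin2, where 11.1% of all genes were called, 6.68% higher and 4.43% lower. Gpam, Lpin2 and Dgat1 did not overlap and were lower in knockout, where 33% of all genes did not overlap, and 7 of the 9 differences were below 0 (median -0.19 against 0.01). In the interaction 2 of 9 were called, both lower, where 2.11% of all genes were called and 0.789% were lower. Gpam, Agpat3, Lpin1 and Lpin2 did not overlap there (22.4% of all genes), and 8 of 9 values were below 0 (median -0.30 against 0.04). Comparisons that share a group share its arrays, so the fed wild type arrays enter both the fasting and the fed genotype differences of Lpin1 and Lpin2.

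**Figure D4:**
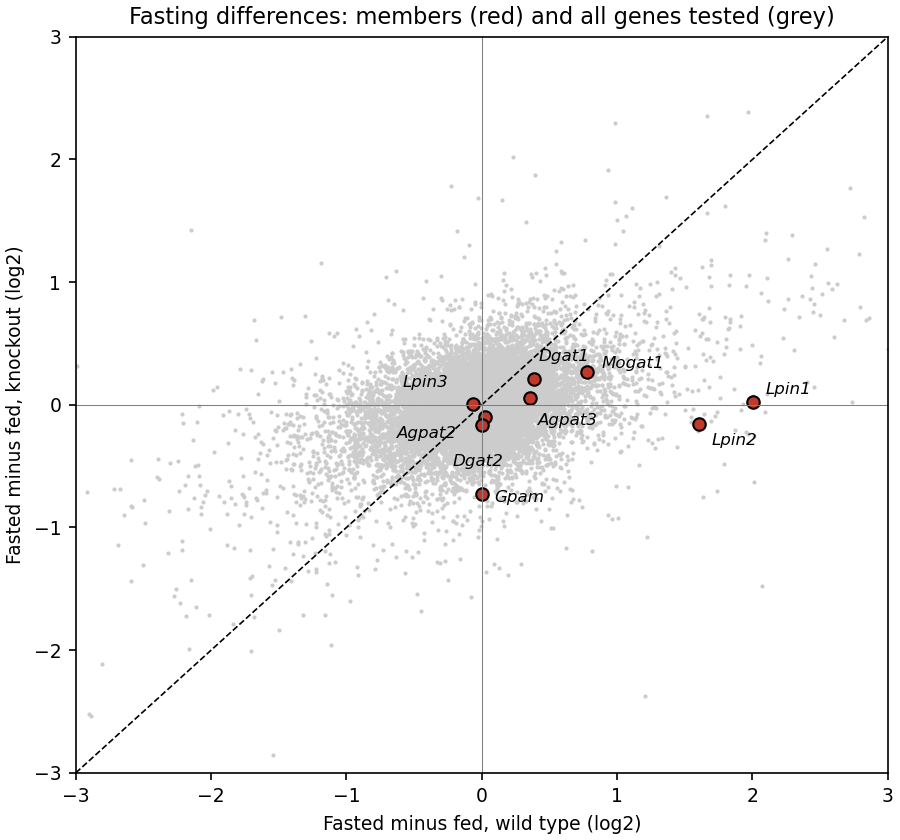
Fasting difference in knockout (vertical axis, log2) against that in wild type (horizontal axis, log2) for the 9 genes in red and all 13942 genes tested in grey, 31 of which lie outside the range drawn. Lpin1 (2.00 and 0.02) and Lpin2 (1.60 and -0.15) lie far below the dashed line of equal differences.

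Summed levels of markers of other cells differed between some groups. Summed intensities of 8 adipocyte markers were 567 to 597 in fed wild type, 656 to 920 in fasted wild type, 620 to 678 in fed knockout and 629 to 765 in fasted knockout, with 0 of 5 tested markers called in any comparison. The higher sum in fasted wild type lay in Fabp4 (7.85 and 7.27 fed, 8.62, 8.18 and 8.31 fasted) and, on 1 array, Lipe (8.36), whereas Plin1 was lower (5.40 and 5.61 fed, 5.30, 5.21 and 5.21 fasted). Those of 7 macrophage markers were 2975 to 3554, 2736 to 2941, 3059 to 3291 and 3278 to 3639 in the same order, with 2 of 7 called for fasting in wild type and 3 of 7 for the fasted genotypes. Those of 4 cholangiocyte markers were 258 to 268, 280 to 308, 223 to 239 and 242 to 263, with 0 of 4 called. Those of 4 pancreas markers were 170 to 181, 109 to 145, 159 to 197 and 144 to 191, with 0 of 2 tested called. Their part in the results was not tested.

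Gpat3 and Gpat4, other acyltransferases of the pathway, also rose in wild type. The counts in the 5 lists below stand beside 8.23% called higher and 13.2% lower of all genes for fasting in wild type (median -0.02) and 1.68% called in knockout (median 0.01). Of 9 in the list 8 were tested, and the fast called 2 higher and 1 lower in wild type (median 0.04). Gpat3, a glycerol-3-phosphate acyltransferase of the endoplasmic reticulum, rose from 7.39 ± 0.19 (SD, n = 2) to 9.18 ± 0.19 (SD, n = 3), a difference of 1.79 (SE 0.21, adjusted p = 0.000753). Gpat4, its close relative, rose by 0.95 (SE 0.14, adjusted p = 0.00193), and Agpat5 fell by 0.78 on the log2 scale (SE 0.12, adjusted p = 0.00251). In knockout 0 of 8 were called by limma; Gpat3 was 7.98 ± 0.36 (SD, n = 2) fed and 8.39 ± 0.29 (SD, n = 3) fasted. Between the fasted genotypes Gpat3 (-0.79, adjusted p = 0.0292) and Gpat4 (-0.52, adjusted p = 0.0293) were lower and Agpat5 higher (0.60, adjusted p = 0.0122) in knockout. The interaction was called for Gpat3 (-1.37, SE 0.29, adjusted p = 0.0487) and Agpat5 (0.89, SE 0.17, adjusted p = 0.0398). Gpam, which makes the same product as Gpat3 and Gpat4, had a fasting difference of 0.00046 in wild type.

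Genes that supply glycerol 3-phosphate and acyl-CoA showed 3 higher and 1 lower of 10 tested in wild type (median 0.05), and 0 called in knockout by limma. Gpd2, the mitochondrial glycerol-3-phosphate dehydrogenase, rose by 0.56 (SE 0.14, adjusted p = 0.0190) and was lower in fasted knockout than in fasted wild type (-0.48, SE 0.12, adjusted p = 0.0384). Slc27a2, a fatty acid transporter with acyl-CoA synthetase activity, rose by 0.39 (SE 0.09, adjusted p = 0.0184), Acsl6 rose by 0.84 (adjusted p = 0.0232) and Gpd1l fell by 0.51 on the log2 scale (adjusted p = 0.0309). Acsl6 was dim, and in each genotype 1 fed array had it below that array's median.

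The branch list covers the use of phosphatidic acid or diacylglycerol, phospholipid synthesis and the lipin phosphatase. It showed 3 higher and 1 lower of 19 tested in wild type (median 0.21) and 1 higher in knockout (median -0.02). Chpt1, which makes phosphatidylcholine from diacylglycerol, rose by 0.47 (SE 0.12, adjusted p = 0.0238), and the diacylglycerol kinase Dgkh by 0.71 (SE 0.14, adjusted p = 0.00672; below the array median on both fed arrays). The kinase Dgkd rose by 0.42 (adjusted p = 0.0301). Cnep1r1, a subunit of the phosphatase that activates lipins, fell by 0.40 on the log2 scale (SE 0.09, adjusted p = 0.0140) in wild type and was higher in fasted knockout than in fasted wild type (0.34, SE 0.08, adjusted p = 0.0324). In knockout the kinase Dgka rose by 0.67 (SE 0.13, adjusted p = 0.0440), a call lost without replicates 1 and 2 (0.70, adjusted p = 0.101). Chka, choline kinase, was 7.29 ± 1.45 (SD, n = 3) in fasted knockout, with a range of 6.05 to 8.89, and 9.71 ± 0.26 (SD, n = 3) in fasted wild type (-2.42, SE 0.56, adjusted p = 0.0282). The difference of Chka was -0.82 without fasted knockout replicates 1 and 2, so it rests largely on these 2 arrays.

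Genes of triglyceride hydrolysis, the opposite process, showed 5 higher and 1 lower of 12 tested in wild type (median 0.17) and 0 called in knockout by limma (median 0.10). Pnpla2, adipose triglyceride lipase, rose by 1.83 (SE 0.15, adjusted p = 0.000251), its inhibitor G0s2 by 2.46 (SE 0.25, adjusted p = 0.000536) and the monoacylglycerol lipase Abhd6 by 1.01 (SE 0.15, adjusted p = 0.00212), while Daglb fell by 0.78 on the log2 scale (adjusted p = 0.00290). Pnpla2 was lower in fasted knockout than in fasted wild type (-0.83, SE 0.14, adjusted p = 0.00907), and its interaction was called (-1.13, SE 0.21, adjusted p = 0.0391). Abhd6 was also lower (-0.51, adjusted p = 0.0409) and Daglb higher (0.59, adjusted p = 0.0137) there.

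Of 16 regulators tested, 3 were higher and 5 lower after the fast in wild type (median -0.13) and 1 was lower in knockout (median -0.22). Srebf1, the driver of lipogenic genes, fell by 2.80 on the log2 scale (SE 0.39, adjusted p = 0.00166) in wild type and by 2.11 (SE 0.39, adjusted p = 0.0415) in knockout, in both genotypes opposite in sign to Lpin1 and Lpin2 in wild type. Without fasted knockout replicates 1 and 2 the knockout difference of Srebf1 was -2.86 (adjusted p = 0.0227). Foxo1, a factor that insulin restrains, rose by 1.13 (SE 0.13, adjusted p = 0.000779) in wild type, was lower in fasted knockout than in fasted wild type (-0.60, adjusted p = 0.0170) and had a called interaction (-1.25, SE 0.19, adjusted p = 0.0264). Its mean was 9.20 ± 0.13 (SD, n = 2) fed and 10.33 ± 0.09 (SD, n = 3) fasted in wild type, and 9.86 ± 0.03 (SD, n = 2) fed and 9.74 ± 0.20 (SD, n = 3) fasted in knockout. Its order of group means was that of Lpin2.

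Ppargc1b, a coactivator of the PGC-1 family, had a called interaction too (-1.17, SE 0.24, adjusted p = 0.0426), and it was lower in fasted knockout than in fasted wild type (-0.60, adjusted p = 0.0337). Insig2 rose by 1.63 (SE 0.28, adjusted p = 0.00376) and Insig1 fell by 1.89 on the log2 scale (SE 0.24, adjusted p = 0.00110) in wild type, both of them brakes on SREBP processing. In fasted knockout Insig2 was lower (-0.998, adjusted p = 0.0333) and Pparg higher (0.78, SE 0.17, adjusted p = 0.0218) than in fasted wild type. These differences were -0.34 for Insig2 and 0.70 for Pparg without fasted knockout replicates 1 and 2.

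Between the fed genotypes 0 genes of these 5 lists were called by limma. Without fasted knockout replicates 1 and 2, none of them was called between the fasted genotypes or in the interaction, where 6 and 0 of all 13942 genes were called. The counts for fasting in wild type were then the same in 4 lists, and 4 higher and 1 lower in the branch list. Genes called for fasting in knockout then changed in the branch list and grew in number among regulators. Those knockout calls rest on 1 fasted knockout array. With the clock score as a covariate, fasting in wild type called 2 higher and 1 lower acyltransferases (Gpat3, Gpat4 and Agpat5), 5 higher and 1 lower hydrolysis genes, 2 higher and 3 lower regulators, 1 higher branch gene and 0 supply genes. In that fit 8.38% of all 13942 genes were called for fasting in wild type, 446 higher and 723 lower.

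**Figure D5:**
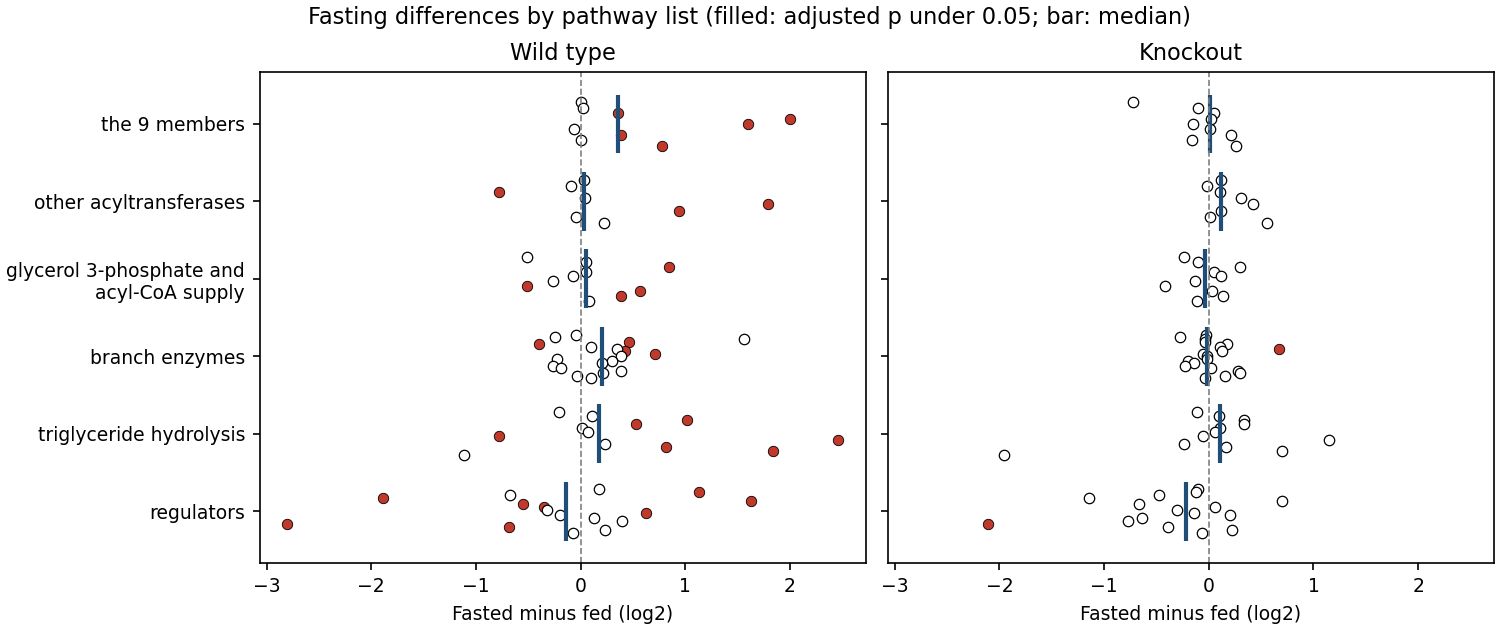
Fasting differences (horizontal axis, log2) of the 9 genes and of 5 pathway lists in wild type and in knockout, 1 point per tested gene, filled at an adjusted p under 0.05, with the median as a bar. In wild type 5 of the 9 genes are filled, and in knockout 0.

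As a description over the 10 arrays, with no test, each gene was set beside the 2 others whose log2 intensities correlated best with it. The arrays share groups, so the values mostly follow group means. Lpin2 ran closest to Foxo1 (Pearson r = 0.982) and Dnmbp (0.975), and Lpin1 to Nfkbia (0.944) and Efna5 (0.934). Nfkbia, the inhibitor of NF-kB, was 8.61 in fed wild type and between 9.12 and 9.23 in the means of the other groups. Agpat3 ran closest to the lipid droplet enzyme Hsd17b13 (0.968) and to Chaserr (0.967), Dgat1 to Med17 (0.968) and the arginase Arg2 (0.968), and Gpam to Banp (0.945) and Cxadr (0.945). Agpat2 ran closest to Dusp11 (0.977) and Celsr1 (0.943), Dgat2 to Crim1 (0.924) and Gna12 (0.915), Mogat1 to Fam131c (0.925) and Gdf6 (0.915), and Lpin3 to H2-DMb1 (0.926) and Bid (0.912). Among the 9 genes, Lpin1 and Lpin2 had r = 0.837 and Spearman rho = 0.612 over the arrays, and r = 0.264 in deviations from group means. Agpat3 had r = 0.872 with Lpin2 and 0.863 with Dgat1.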

How the data were processed

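Liver RNA of 10 samples in 4 groups was measured, with 2 arrays per fed and 3 per fasted group. The table the authors deposited holds 1 normalized intensity per probe set on a linear scale. RMA and Affymetrix Expression Console are named, per the submitters' processing notes, with no version or build. Each array had 228 to 489 values below 0.1, and how these arose is not known. Log2 was taken with no further normalization. Probe sets with 1 symbol (23521 of 41345) were used, those above the array median on at least 2 arrays were kept, and the brightest stood for its gene. Group means were fitted in limma 3.58.1 (R 4.3.3, eBayes) over 13942 genes, with 5 contrasts. The fit was tested on simulated data. The number of arrays limits the precision.

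Members, lists and tests were chosen with earlier results of these data known. The text names the 9 members, Pml, up to 4 called genes per list and contrast with the smallest p, and 2 genes per member by correlation. Alternatives covered normalization, filters, probe sets, an added intensity, moderation, weights, the replicate block, the groups fitted, the clock score and omitted arrays. Replicate numbers were checked as pairs and showed no sign of pairing, which the check cannot exclude. Symbols matched RefSeq names (GRCm38.p6) with 0 updates.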

Additional observations from a re-analysis of the deposited data

Results flagged for a closer look

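The fasting response of 2 genes differed between the genotypes. The interaction was -1.98 for Lpin1 (SE 0.43, limma adjusted p = 0.0488), with fasting differences of 2.00 in wild type and 0.02 in knockout. It was -1.76 for Lpin2 (SE 0.28, limma adjusted p = 0.0278), with 1.60 in wild type and -0.15 in knockout.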

How the results depend on the processing

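For fasting in wild type the count of called members went from 5 to 3 with centred arrays and to 2 with no filter, the replicate block, only the 2 groups, or the clock covariate, and lay between 2 and 4 over the omissions of 1 array. For fasting in knockout it went from 0 to 1 (Gpam) with the stricter filter, 16 added to the intensity, or trend and robust moderation, and stayed 0 over the omissions. Between the fasted genotypes it went from 1 to 0 with no filter, only the 2 groups, the clock covariate, or without fasted knockout replicates 1 and 2, and to 2 with the stricter filter, 16 added or trend and robust moderation. It lay between 0 and 1 over the omissions. For the interaction it went from 2 to 1 with quantile normalization, the mean of all probe sets, trend and robust moderation, array weights or the replicate block, to 0 with no filter, the clock covariate or without those 2 replicates, and lay between 0 and 1 over the omissions. Between the fed genotypes it was 0 throughout. The causes were not tested.

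The replicate numbers showed no sign of pairing: 1 of 13 same-numbered pairs and 2 of 24 other pairs had a correlation of deviations over 0.1. In groups of 2 arrays the deviations mirror each other, so this check cannot exclude pairing. The replicate block ended the call of the interaction of Lpin1 (adjusted p = 0.0515) and of Agpat3 (0.102), Dgat1 (0.0827) and Mogat1 (0.0981) for fasting in wild type, and left those of Lpin1 and Lpin2.

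Some small differences changed sign. For fasting in wild type Gpam was -0.041 with centred arrays, -0.00097 with array weights and -0.021 with the replicate block, Agpat2 -0.019 with centred arrays, -0.071 with the block and -0.21 with the clock covariate, and Dgat2 -0.040 with centred arrays and -0.0057 with quantile normalization. For fasting in knockout Lpin3 was -0.029 with the block, and without fasted knockout replicates 1 and 2 Agpat2 was 0.17 and Lpin3 -0.030. With the clock covariate Agpat2 was 0.021 and Dgat1 0.0020 between fed genotypes, Agpat2 0.060 and Dgat2 -0.11 between fasted genotypes, and Agpat2 0.039 in the interaction. Without those 2 replicates Agpat2 was 0.083 and Dgat2 -0.12 between fasted genotypes, and Agpat2 0.14 in the interaction. Over the omissions of 1 array, fasting in wild type ranged from -0.18 to 0.18 for Gpam, -0.031 to 0.090 for Agpat2, -0.16 to 0.025 for Lpin3 and -0.044 to 0.050 for Dgat2. Fasting in knockout ranged from -0.020 to 0.13 for Agpat3, -0.14 to 0.19 for Lpin1, -0.35 to 0.022 for Lpin2 and -0.054 to 0.052 for Lpin3. Fed genotypes ranged from -0.16 to 0.034 for Agpat2, -0.021 to 0.15 for Lpin3 and -0.12 to 0.078 for Dgat1. Fasted genotypes ranged from -0.0077 to 0.18 for Dgat2 and -0.30 to 0.11 for Mogat1, and the interaction of Lpin3 from -0.017 to 0.16. None of these values was called.

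Counts over all genes, and so the shares printed beside the members, moved too. For fasting in wild type 2990 genes were called, 1169 with the clock covariate and 1326 to 3062 over the omissions of 1 array. For fasting in knockout it was 234, with 10 without a filter, 0 with the replicate block, 16 with only the 2 groups, 76 with the clock covariate, 504 with trend and robust moderation and 1 (without fed knockout replicate 2) to 170 over the omissions. Between fed genotypes it was 12, with 0 to 24 over all alternatives. Between fasted genotypes it was 1549, with 654 without a filter, 850 with only the 2 groups, 38 with the clock covariate, 6 without fasted knockout replicates 1 and 2, and 435 (without fasted knockout replicate 1) to 1501 over the omissions. In the interaction it was 294, with 4 without a filter, 137 with the block, 56 with the clock covariate, 520 under robust moderation with a trend, 0 without those 2 replicates and 2 (without fed knockout replicate 2) to 360 over the omissions.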

Other observations

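Lpin1 and Lpin3 ran opposite within groups, with r = -0.931 between their deviations from group means over 10 arrays. The deviations share group means, and Lpin3 lay near the array median, so this value is given as a description. Fasted wild type replicate 3 had the lowest Lpin1 (10.11) and the highest Mogat1 (6.37) of its group, with Lpin2 at 11.43.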
